A study of Mus musculus with 6 samples.

Results

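The genes for mitochondrial ribosomal proteins, 77 of the 45808 gene lines in a deposited RNA-seq count table, were followed through the conversion of mouse fat precursor cells into beige adipocytes. A line was taken as a member where its symbol was Mrpl or Mrps followed by a number and at most 1 letter, which gave 48 Mrpl and 29 Mrps symbols. By present knowledge of the structure, 50 belong to the large subunit (among them Mrps18a and Mrps30, whose symbols name the small one) and 26 to the small subunit. Mrps36 belongs to neither: its product is now known as a part of the 2-oxoglutarate dehydrogenase complex of the citrate cycle. The cells were the stromal-vascular fraction of inguinal white fat from 8-week old male mice labelled WT, that is, the cells left in the pellet when collagenase-digested fat is spun down, grown to confluence in culture. Libraries of day 0 came from confluent cells before induction. Libraries of day 2 came from cells induced for 2 days with rosiglitazone (1 µM), T3 (1 nM), insulin (850 nM), indomethacin (125 µM), dexamethasone (5 µM) and IBMX (0.5 mM). Libraries of day 6 came from cells then kept on rosiglitazone, T3 and insulin at the same doses, without the other agents. Each day had 2 libraries, numbered 76 and 77, which the series design calls biological replicates. No label says whether the numbers stand for separate mice or cultures, and a p-value here reflects only how far such libraries differ.

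The mitochondrial ribosome translates the few proteins encoded in mitochondrial DNA, all of them core subunits of the respiratory chain and of ATP synthase. Its rRNAs come from the mitochondrial genome, while every one of its proteins is encoded in the nucleus, made on cytosolic ribosomes and imported. Brown and beige adipocytes are rich in mitochondria, and their heat production runs on the respiratory chain that this ribosome helps to build.

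Gene counts summed to between 22522221 and 29458374 per library, so 3 counts, the limit that a count of 0 allows, stood for 0.102 to 0.133 counts per 1000000 (CPM), counting error alone. CPM below are scaled to effective library sizes (TMM), whose factors were 1.03 and 1.04 for day 0, 1.12 and 1.11 for day 2, and 0.849 and 0.891 for day 6. Reads that could not be placed uniquely made up 4.16 to 9.05% of reads and moved with the day, and their part in the results was not tested. Of the 77 members, 76 had enough counts to be tested among 14459 genes. The exception was Mrpl53, a large subunit gene on chromosome 6 with 0 counts in all 6 libraries. In the GENCODE M21 annotation (GRCm38), 88.0% of its exon length lies under Ccdc142os and Gm42688, and 82.0% of its stretches of 50 bases occur in more than 1 gene, so the 0 says nothing firm about its expression.

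The members as a group went up over the course. Summed over the 77 genes, their share of all gene counts was 0.165 and 0.168% before induction, 0.320 and 0.298% on day 2, and 0.407 and 0.381% on day 6. No library of a later day fell below one of an earlier day. The means were 0.166 ± 0.00145, 0.309 ± 0.0150 and 0.394 ± 0.0188% (SD, n = 2 each). In CPM on the TMM scale the sums were 1613 and 1614 before induction, 2855 and 2688 on day 2, and 4799 and 4275 on day 6, a steeper last step than in the raw shares. The sums are a description and were not tested. Between any 2 days an exact two-sided permutation test of 2 libraries against 2 cannot go below 0.333. In bulk samples fewer cells of a type and less RNA per cell cannot be told apart. The edgeR quasi-likelihood F test for any difference between the days called all 76 members tested at an adjusted p under 0.05, beside 84.8% of all genes tested. The mean was highest at day 6 for 74 members (38.0% of all genes tested), at day 2 for Mrpl33 (26.6%) and at day 0 for Mrpl52 (35.3%).

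**Figure D1:**
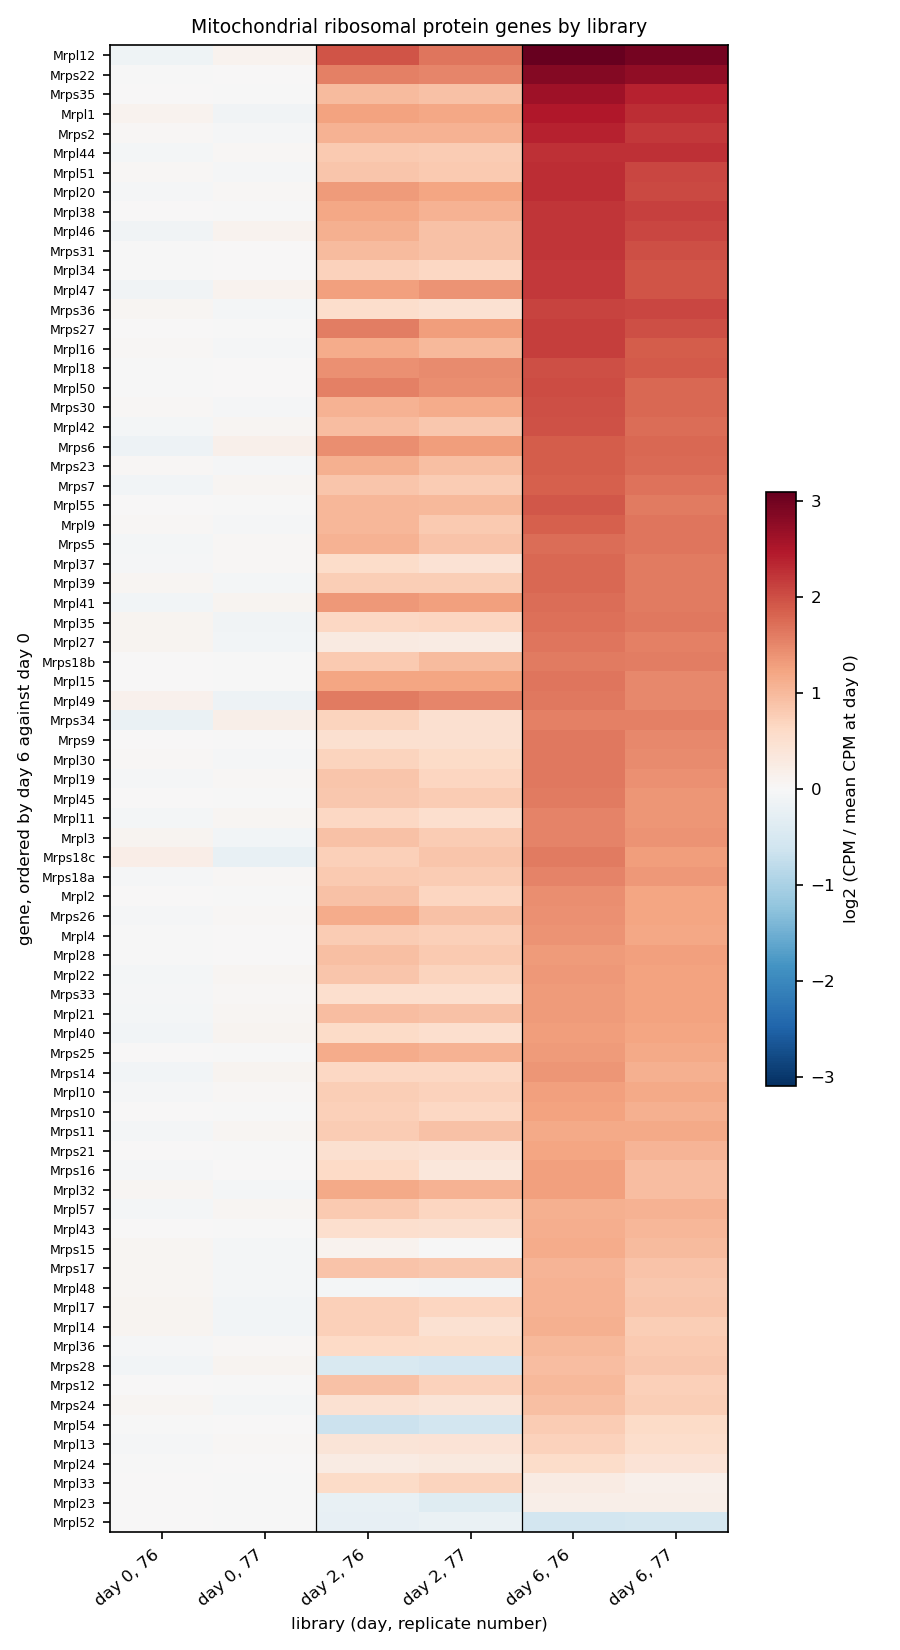
Level of the 76 members tested in each of the 6 libraries, as the log2 ratio of its CPM to the gene's mean CPM at day 0 (red above, blue below), with members in rows ordered by their log2 change between day 6 and day 0. Most rows pass from low at day 0 to high at day 6, while Mrpl52 runs the other way and Mrpl33 is highest at day 2.

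**Figure D2:**
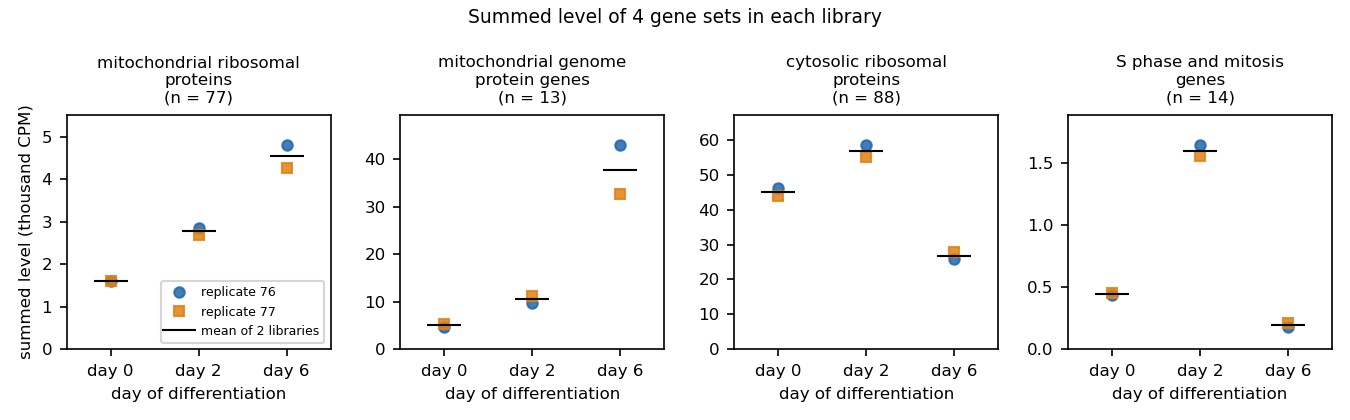
Summed CPM of 4 gene sets in each library (points; the short bar is the mean of the 2 libraries of a day), on separate linear axes that start at 0. The members climb at both steps, whereas the cytosolic ribosomal protein genes and the S phase and mitosis genes peak at day 2.

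Levels differed widely between members. The mean CPM ranged 19.7-fold at day 0, 18.5-fold at day 2 and 20.7-fold at day 6, with Mrps18c the lowest each day, and Mrpl17 the highest at days 0 and 2 and Mrpl51 at day 6. Per kilobase of annotated exon (mean CPM per kb over the 6 libraries) the highest were Mrpl34, a short basic protein of the large subunit, with 83.1, and Mrps21 of the small subunit with 79.7. Next came Mrpl2, which lies near the peptidyl transferase centre, with 51.3, Mrpl41 with 48.0 and Mrpl20, whose bacterial counterpart acts early in large subunit assembly, with 42.5. The lowest were Mrpl33 with 1.82, Mrps30 with 2.35 and Mrps35 with 3.10 CPM per kb. These 3 have long unions of exons over all isoforms, of 7326, 6666 and 8631 bases, which lowers a level per length. The day-to-day ratios of a gene are free of its length.

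Promoters are shown because nearly all members went up together, and because motifs of NRF1, ETS factors (the class of GABP, also called NRF2) and YY1 are known in genes for mitochondrial proteins. RefSeq promoter windows (GRCm38.p6, 250 bases before to 50 after a start, 300 in all) were found for 68 members, 74 windows in total. An exact ETS motif, CCGGAAGT on either strand, stood in 12 of them (16.2%), beside 7.47% of the 13318 windows of genes tested and 3.89% of the 32851 windows of all genes in the table. An exact YY1 motif, AAGATGGC, also stood in 12 (16.2%), beside 4.16% and 2.75%. The NRF1 motif, GCGCA followed at once by TGCGC, stood in 3 (4.05%), beside 1.94% and 0.971%. The E-box CACGTG stood in 7 windows (9.46%, beside 9.77% and 7.15%). These belong to 5 members, since overlapping windows of Mrpl2 hold the same E-box. The CRE TGACGTCA stood in 2 windows (2.70%, beside 3.09% and 1.79%) and the ERR motif TCAAGGTCA in 0 (beside 0.285% and 0.423%). All were searched on both strands, no ETS match overlapped a YY1 match, and a match is a description of letters, not of binding. Windows follow for the member that went up most (Mrpl12), for 2 other steep risers that hold matches (Mrps22 and Mrps27, the one member with both ETS and YY1) and for the one member that was lower at day 6 than at day 0 (Mrpl52). They run 5′ to 3′ on the gene's strand, from RefSeq on GRCm38.p6, and capitals mark the ETS match (CCGGAAGT or its complement ACTTCCGG) or the YY1 match (AAGATGGC).
Mrpl12: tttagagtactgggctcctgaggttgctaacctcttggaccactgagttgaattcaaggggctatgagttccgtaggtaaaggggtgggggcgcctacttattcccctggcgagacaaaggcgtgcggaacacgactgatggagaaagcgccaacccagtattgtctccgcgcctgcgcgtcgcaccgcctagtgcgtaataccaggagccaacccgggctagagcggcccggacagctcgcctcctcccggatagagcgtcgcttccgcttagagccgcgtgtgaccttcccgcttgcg
Mrps22: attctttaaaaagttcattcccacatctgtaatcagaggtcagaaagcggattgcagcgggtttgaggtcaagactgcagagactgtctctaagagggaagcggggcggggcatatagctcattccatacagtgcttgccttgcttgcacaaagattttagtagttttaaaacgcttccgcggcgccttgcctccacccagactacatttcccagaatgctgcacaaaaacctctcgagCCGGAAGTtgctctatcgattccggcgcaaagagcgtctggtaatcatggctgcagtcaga
Mrps27: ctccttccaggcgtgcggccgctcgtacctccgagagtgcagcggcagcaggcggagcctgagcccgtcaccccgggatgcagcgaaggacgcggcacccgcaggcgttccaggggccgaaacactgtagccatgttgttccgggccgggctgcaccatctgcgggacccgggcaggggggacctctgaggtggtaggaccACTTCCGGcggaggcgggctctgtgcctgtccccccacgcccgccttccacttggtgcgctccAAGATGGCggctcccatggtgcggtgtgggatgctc
Mrpl52: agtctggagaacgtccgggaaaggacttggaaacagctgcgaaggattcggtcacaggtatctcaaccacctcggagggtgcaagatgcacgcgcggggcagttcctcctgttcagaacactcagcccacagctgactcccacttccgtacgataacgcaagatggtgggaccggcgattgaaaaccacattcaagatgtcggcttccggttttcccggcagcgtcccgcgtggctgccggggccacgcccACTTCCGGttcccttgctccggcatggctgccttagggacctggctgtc
They lie at chr11:120484387-120484686 (plus strand), chr9:98601630-98601929 (minus), chr13:99344536-99344835 (plus) and chr14:54426659-54426958 (plus), in the order printed. The Mrpl12 window holds no exact match to any of the 6 motifs. The Mrpl52 window holds an ETS match at the gene's start, which lies after the first 250 bases of the window. Near matches were not counted, so a window without a match can still hold similar letters. The 12 members with an ETS match had a median log2 change of 1.46 between day 6 and day 0, against 1.56 for the 55 tested members with a window but no match. For YY1 the medians were 1.51 with a match (12 members) and 1.48 without (55 members). These differences were small beside the spread of the carriers, which reached from -0.55 to 2.79 for ETS and from 0.86 to 2.07 for YY1, and they were not tested. Position was described as well. For 23 of 77 members (29.9%) a protein-coding neighbour on the opposite strand starts 1000 bases upstream to 200 bases downstream of the member's start. The share was 11.5% for the 12723 protein-coding genes tested.

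The first comparison set day 2, after 2 days of induction medium, against day 0. No library came from uninduced cells of a later day. At each step the medium and the time in culture therefore cannot be told apart. In edgeR's test at an adjusted p under 0.05, 70 of 76 members rose (beside 33.6% of all genes) and 4 fell (beside 33.6%), and Mrpl48 and Mrps15 were not called (named after their values were seen). Mrpl48 had 20.7 and 20.3 CPM at day 2, against 22.4 and 20.6 CPM at day 0, and Mrps15 had 29.3 and 26.6 CPM at day 2, against 28.3 and 25.8 CPM at day 0. The median log2 change was 0.80 (quartiles 0.60 and 1.02), beside 0.00 over all genes tested, and 22 of the risers passed 2-fold (beside 12.3% of all genes). Both day 2 libraries lay above both day 0 libraries for 70 members, beside 43.2% of all genes. Mrpl12, the stalk protein that recruits translation factors and is also known to bind the mitochondrial RNA polymerase, had 38.6 and 31.8 CPM at day 2, against 9.17 and 10.8 CPM at day 0. The days did not overlap, and the log2 change was 1.82 ± 0.12 (SE; edgeR adjusted p = 6.37e-06). Mrps22, a small subunit protein with no bacterial counterpart that is mutated in human mitochondrial disease, had 26.2 and 25.2 CPM at day 2, against 8.84 and 8.93 CPM at day 0. That was a log2 change of 1.53 ± 0.08, with replicates far closer to each other than the days were. The other steep rises were in Mrpl49 (1.56), Mrpl50 (1.50), Mrps27, a protein of the pentatricopeptide repeat kind (1.45), and Mrpl18 of the central protuberance (1.44).

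The 4 falls by day 2 were small. Mrpl54, a large subunit protein without a bacterial counterpart, had 15.4 and 16.5 CPM at day 2, against 24.5 and 24.7 CPM at day 0. The days stood clearly apart, and its log2 change was -0.63 ± 0.10 (edgeR adjusted p = 0.000533). Mrps28 of the small subunit had 12.8 and 12.5 CPM at day 2, against 16.9 and 18.8 CPM at day 0, a log2 change of -0.49 ± 0.10 whose call was lost without day 0 replicate 77 (edgeR adjusted p = 0.105). Mrpl23, which sits by the exit of the peptide tunnel, and Mrpl52 changed by -0.30 and -0.23. Their calls were lost without either day 0 library and under several other settings, with an edgeR adjusted p of up to 0.292 and 0.427, so of the 4 only the fall of Mrpl54 held in every alternative. Of the rises, that of Mrps18c (log2 change 0.78 ± 0.21) was no longer called without day 2 replicate 77 (log2 change 0.74). Those of Mrpl14 and Mrps16 were lost without day 2 replicate 76. That of Mrpl24 was lost without day 0 replicate 76 or day 2 replicate 77, and that of Mrpl27 without either day 2 library. Mrpl14, Mrps16, Mrpl24 and Mrpl27 were named after their values were seen.

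**Figure D3:**
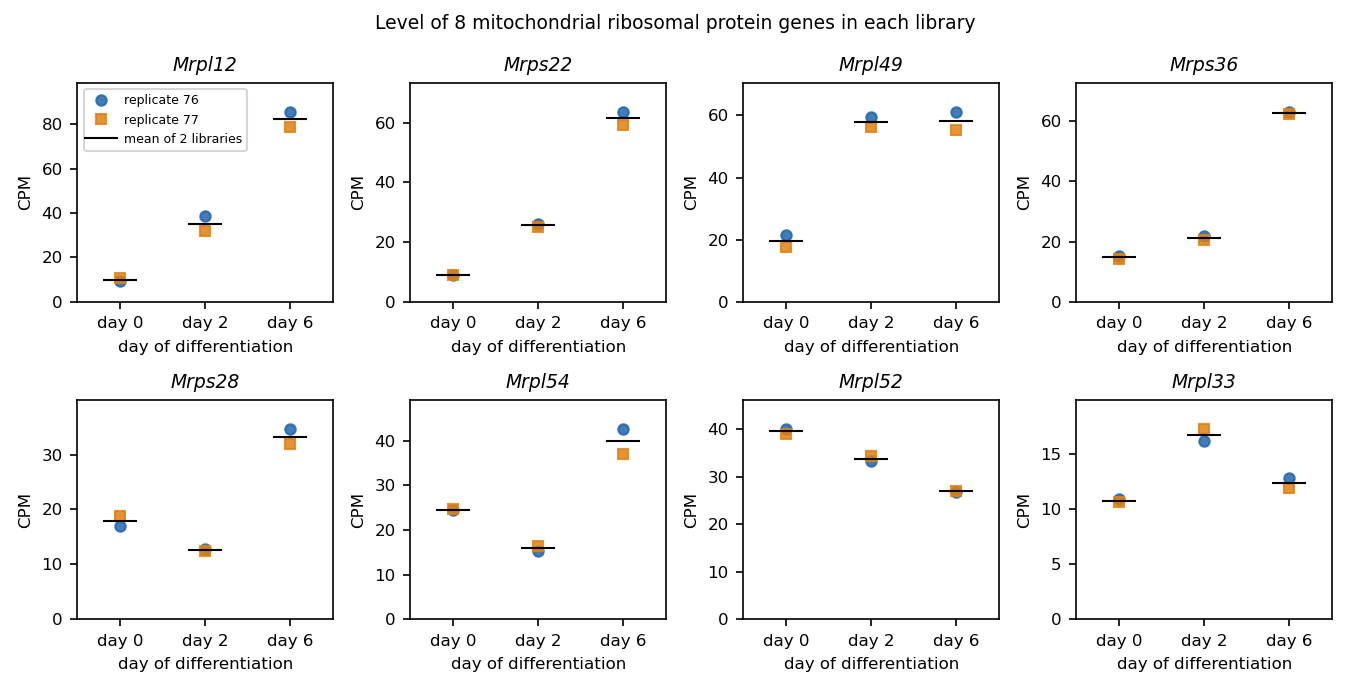
CPM of 8 members in each library by day (points for replicates 76 and 77, short bar for the mean of the 2 libraries), on linear axes that start at 0. Mrpl12 and Mrps22 climb at both steps, Mrpl49 stays level after day 2, Mrps36 and Mrps28 climb after day 2, and Mrpl52 is lower at each later day.

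The second comparison set day 6, after the maintenance medium, against day 2. It shares the day 2 libraries with the first, so the values of the steps stand side by side and their likeness was not measured. In edgeR's test 68 of 76 members rose (beside 38.2% of all genes), Mrpl33 and Mrpl52 fell (beside 27.5%), and 6 were not called. The median log2 change was 0.69 (quartiles 0.42 and 1.02), beside 0.12 over all genes, and 20 of the risers passed 2-fold (beside 19.2% of all genes). Both day 6 libraries lay above both day 2 libraries for 70 members, beside 47.0% of all genes. This comparison depended on scaling. With library totals alone 43 members were called higher and 7 lower, and the median log2 change was 0.33. The same choice moved the median of all genes by -0.36. The shares of all genes called under that scaling are not given here, so the 43 and 7 stand without a background. Of the 70 calls, 25 were lost in at least 1 alternative and 12 of these on leaving out a library, among them the rises of Mrpl50 without day 0 replicate 77 and of Mrps18c without either day 2 library or day 6 replicate 76.

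Mrps36 and Mrps35 rose most. Mrps36, the 2-oxoglutarate dehydrogenase protein, had 63.1 and 62.3 CPM at day 6, against 21.7 and 20.6 CPM at day 2. The groups were tight and far apart, with a log2 change of 1.57 ± 0.08 (edgeR adjusted p = 9.80e-07) after one of 0.51 at the first step. Mrps35 of the small subunit had 57.6 and 48.7 CPM at day 6, against 18.5 and 17.4 CPM at day 2, a log2 change of 1.57 ± 0.10. Mrpl44, whose fold is that of an RNase III and which is mutated in a human cardiomyopathy, rose by 1.46, Mrpl34 by 1.41 and Mrpl51 by 1.35. Mrps28 and Mrpl54, lower at day 2, turned up: Mrps28 had 34.7 and 31.9 CPM at day 6, against 12.8 and 12.5 CPM at day 2, and Mrpl54 had 42.7 and 37.0 CPM at day 6, against 15.4 and 16.5 CPM at day 2. Their log2 changes were 1.39 ± 0.10 and 1.33 ± 0.10, and both ended above day 0. Mrpl49, among the steepest risers by day 2, went no further. It had 61.2 and 55.3 CPM at day 6, against 59.5 and 56.1 CPM at day 2, and the ranges overlapped. With Mrpl32, whose processing by a mitochondrial protease is known to gate assembly in yeast and mouse, Mrps12 of the decoding centre, Mrps17, Mrps25 and Mrpl14, it made up the 6 members not called, named here after their values were seen. Mrpl14 was called higher with the replicate block (log2 change 0.34, edgeR adjusted p = 0.0247). Mrpl33, a short large subunit protein, had 12.9 and 12.0 CPM at day 6, against 16.2 and 17.3 CPM at day 2, so the groups stood apart with a log2 change of -0.43 ± 0.10 (edgeR adjusted p = 0.00562).

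The third comparison spanned the whole course. In edgeR's test 73 of 76 members were higher at day 6 than at day 0 (beside 35.9% of all genes), Mrpl52 was lower (beside 35.1%), and Mrpl33 and Mrpl23 were not called. The median log2 change was 1.51 (quartiles 1.14 and 1.86), or 2.85-fold, beside -0.01 over all genes, and 62 of the risers passed 2-fold (beside 18.5% of all genes). All 74 calls held in every alternative. Both day 6 libraries lay above both day 0 libraries for 75 members, beside 43.1% of all genes. Mrpl12 had 85.7 and 78.7 CPM at day 6, against 9.17 and 10.8 CPM at day 0. That 8.25-fold rise (log2 change 3.04 ± 0.12, edgeR adjusted p = 2.21e-07) was the largest of the 76. Mrps22 had 63.8 and 59.4 CPM at day 6, against 8.84 and 8.93 CPM at day 0, which was 6.93-fold. Next came Mrps35 (log2 change 2.52), Mrpl1 of the mobile stalk by the exit site (2.38), Mrps2 (2.30) and Mrpl44 (2.26).

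Mrpl52 was the single member that lost ground over the course. It had 26.8 and 27.0 CPM at day 6, against 40.1 and 39.0 CPM at day 0, and 33.4 and 34.3 CPM at day 2. The 3 days did not overlap, and the log2 change between day 6 and day 0 was -0.55 ± 0.07 (edgeR adjusted p = 0.000163). Its exons overlap no other annotated gene and share no stretch of 50 bases with one. Mrpl23 had 27.9 and 28.2 CPM at day 6, against 25.0 and 24.6 CPM at day 0, and Mrpl33 had 12.9 and 12.0 CPM at day 6, against 10.9 and 10.7 CPM at day 0. Their log2 changes of 0.18 ± 0.08 and 0.20 ± 0.11 did not pass (edgeR adjusted p = 0.0862 and 0.115) and turned negative with library totals alone.

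The subunits had similar medians, and no difference between them was tested. For the 49 large subunit members tested the median log2 change was 0.79 at day 2 against day 0, 0.67 at day 6 against day 2 and 1.54 at day 6 against day 0, and for the 26 small subunit members it was 0.84, 0.69 and 1.39. Over the whole course 46 of 49 large subunit members rose and 1 fell, while 26 of 26 small subunit members rose. Of all genes tested, 35.9% rose and 35.1% fell. The paralogs Mrps18a, Mrps18b and Mrps18c averaged 20.5, 5.11 and 2.53 CPM at day 0. Their log2 changes between day 6 and day 0 were close, at 1.44, 1.60 and 1.46. Reads that fit overlapping genes or copies could be lost or moved, so the 38 members with no exon overlap and few shared stretches were set apart. Their median log2 changes were 0.79 at day 2 against day 0, 0.84 at day 6 against day 2 and 1.52 at day 6 against day 0, against 0.81, 0.62 and 1.50 for the other 38 tested.

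Proteins and factors that work with this ribosome, from lists chosen by function, mostly rose too. Of all genes tested, 33.6% rose by day 2, and 38.2% rose and 27.5% fell at day 6 against day 2. Over the course 35.9% rose and 35.1% fell. Of 6 mitoribosomal proteins under other symbols, 3 rose by day 2, and 6 rose in day 6 against day 2 and against day 0. Ptcd3, a pentatricopeptide repeat protein of the small subunit, rose most, with a log2 change of 2.63 between day 6 and day 0. Of 27 assembly and rRNA modification factors, 24 were higher and 0 lower at day 6 than at day 0 (median log2 change 1.00), led by Ddx28, a helicase of large subunit assembly, with 2.38. At day 6 against day 2 that list split, with 17 higher and 4 lower: Nop9, known as a nucleolar factor, by -1.01, Gtpbp10 by -0.51, Noa1 by -0.46 and Dhx30 by -0.24. Of 16 translation factors tested, 11 rose by day 2, 14 at day 6 against day 2 and 15 over the course (median 1.35): Gfm1, an elongation factor that moves the ribosome along, by 2.90, Taco1, an activator of Co1 translation, by 2.71, and Gfm2, which acts in ribosome recycling, by 2.59. Of 17 mitochondrial aminoacyl-tRNA synthetases 16 rose over the course (median 1.25), with Lars2 not called (log2 change 0.16).

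**Figure D4:**
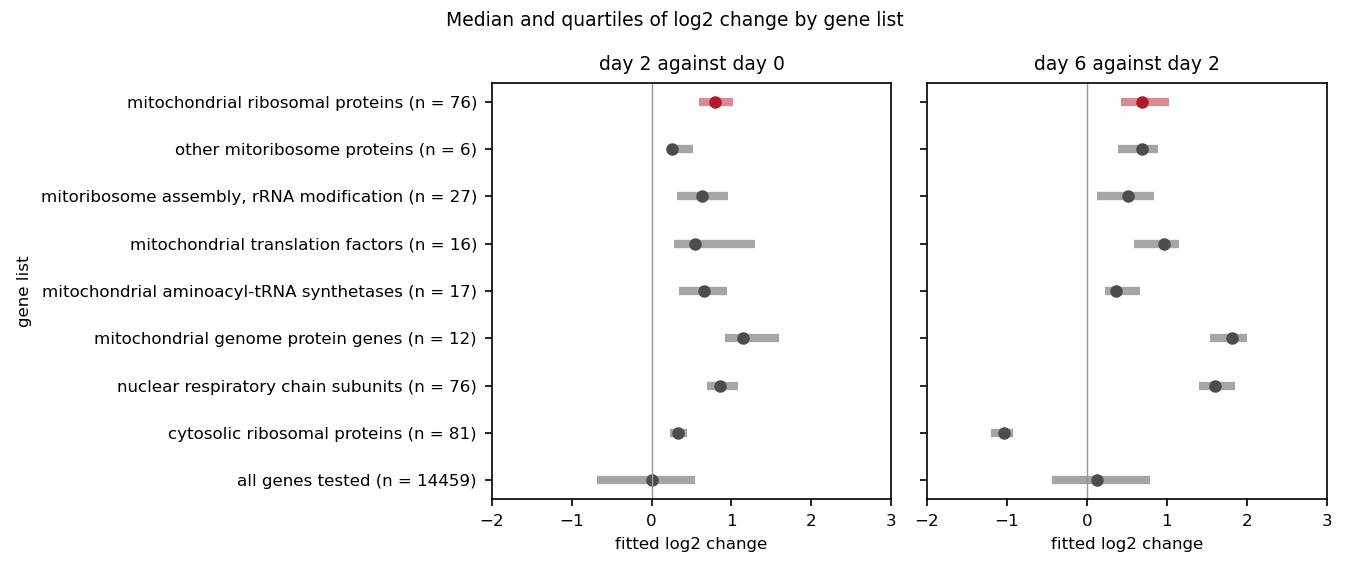
Median (point) and quartiles (bar) of the fitted log2 change by gene list, for day 2 against day 0 (left) and day 6 against day 2 (right), with the number of genes tested beside each name. The members (red) have medians of 0.80 and 0.69, while the cytosolic ribosomal protein genes have 0.34 and -1.03.

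Transcripts that this ribosome translates rose further than the transcripts of the members. The 12 mitochondrial genome protein genes tested had median log2 changes of 1.14, 1.82 and 2.79 at day 2 against day 0, day 6 against day 2 and day 6 against day 0, and mt-Nd4l had 0 counts in all libraries. The nuclear respiratory chain subunits had 0.86, 1.60 and 2.49 (76 tested, all higher over the course, beside 35.9% of all genes). So at the first step the members' median lay close to that of the nuclear respiratory subunits, and at the second it was smaller. The 2 mitochondrial rRNA genes, whose RNA is part of this ribosome, had medians of 1.47, 2.70 and 4.17 in the same comparisons. The libraries were made from oligo-dT selected RNA, and what this does to the levels of mitochondrial transcripts, rRNA included, was not tested.

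Cytosolic ribosomal protein genes behaved otherwise: 60 of 81 tested rose and 1 fell by day 2 (median log2 change 0.34), but 1 rose and 78 fell at day 6 against day 2 (median -1.03). The direction of the members between day 6 and day 0 was the opposite of theirs, with a median of 1.51 for the members and -0.73 for the cytosolic genes. The 14 S phase and mitosis genes all rose by day 2 and all fell at day 6 against day 2, with medians of 1.81 and -3.14. Of all genes tested, 33.6% rose and 33.6% fell by day 2, and 38.2% rose and 27.5% fell at day 6 against day 2. Of 15 regulators tested, 9 were higher and 4 lower at day 6 than at day 0, with a median log2 change of 0.80. Of all genes tested, 35.9% were higher and 35.1% lower. Ppargc1a and Ppargc1b, coactivators of mitochondrial biogenesis, rose over the course by 5.75 and 5.73 on the log2 scale, and Tefm, an elongation factor of mitochondrial transcription, by 2.30. Of factors for the NRF1, ETS and YY1 motifs, Nrf1 changed by -0.42, Gabpa by 0.45, Gabpb1 by -0.62 and Yy1 by -0.19 between day 6 and day 0. All passed the threshold in edgeR's test, and their part in the members' changes was not tested.

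Cell type markers moved with the days as well, and their part in the results was not tested. By day 2, 33.6% of all genes tested rose, and over the course 35.9% rose and 35.1% fell. All 12 adipocyte markers rose by day 2 and over the course, with sums of 1089 to 1263 CPM at day 0, 11067 to 11976 at day 2 and 50078 to 58881 at day 6. Of 9 progenitor markers 8 fell over the course, with sums of 2516 to 2526, 1317 to 1527 and 850 to 1279 CPM. Markers of other cells had smaller sums on each day than the adipocyte or the progenitor markers, but were not absent. The 9 macrophage markers summed to 45.4 to 52.6 CPM at day 0, 34.0 to 65.6 at day 2 and 61.1 to 148 at day 6, where 6 of 9 were higher than at day 0. The 7 endothelial markers summed to 29.9 to 34.1, 6.33 to 6.35 and 12.2 to 15.8 CPM, the 6 mural markers to 121 to 132, 37.4 to 39.1 and 114 to 116, the 5 Schwann cell markers to 107 to 146, 15.2 to 21.3 and 7.81 to 10.3, and the 5 skeletal muscle markers to 25.0 to 38.0, 2.19 to 6.18 and 8.98 to 9.37. The mural sums at days 0 and 6 came close although 4 of the 6 genes were lower at day 6 and 2 higher. Their median log2 change was -1.80. The 4 haemoglobin genes of the red blood cell list had 0 counts in all libraries, and its remaining gene, Alas2, had at most 0.402 CPM. Whether reads of the haemoglobin genes were lost as not uniquely placed was not tested, so their 0 says nothing firm about red blood cells.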

How the data were processed

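RNA was measured by RNA-seq in 6 libraries, 2 per day. Per the labels' protocols, total RNA was DNase-treated, selected with oligo-dT beads and sonicated to fragments of about 200 bp. The submitters' processing notes name TopHat2 2.0.13 and HTSeq 0.9.1 and the builds mm10 and GRCm38; neither annotation nor strand setting is stated there. The deposited table holds whole-number counts per gene, as read from its values, although its headers say RPKM. Lines that name no gene stayed out of library sizes.

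Counts were tested with edgeR 4.0.16 (R 4.3.3, limma 3.58.1): TMM scaling, filterByExpr, a quasi-likelihood fit with a mean per day over all 6 libraries (3 residual degrees of freedom, common BCV 0.0830) and Benjamini-Hochberg adjustment over 14459 genes at 0.05; 31349 lines were untested. The procedure was tested on simulated data in which few genes changed, up or down at random. Such data do not test the scaling between days. Alternatives were library totals, RLE factors, other low-count filters, DESeq2 1.42.0, a replicate block, the libraries of 2 days only and each library left out. Deviations of same-numbered libraries correlated weakly: Pearson's r was 0.109, 0.112 and 0.213, each over the 0.1 limit that counted as pairing, and Spearman's rho was 0.0589, 0.0546 and 0.176. The main fit left this pairing out, so its p-values and SE are those of an unpaired fit. Only the alternative with the replicate block included it. Within each day the libraries were further apart than counting noise (chi-square per degree of freedom 7.12, 7.85 and 27.4). Members, lists and motifs were chosen with earlier results of these data known. Members named are the 6 largest rises and falls called per comparison, the 5 highest and 3 lowest levels per length, the Mrps18 paralogs, Mrpl12, Mrps36, Mrps30 and any member untested; of each list, up to 3 genes with the largest changes past the threshold. Other list genes were named after their values were seen.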

Additional observations from a re-analysis of the deposited data

How the results depend on the processing

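With library totals alone, medians of the members' log2 changes were 0.91 (day 2 against day 0), 0.33 (day 6 against day 2) and 1.26 (day 6 against day 0); 2 members were called lower by day 2, and 43 were called higher and 7 lower at day 6 against day 2, where Mrpl49 turned to a log2 change of -0.35. That scaling moved the median of all genes by 0.11, -0.36 and -0.25. DESeq2 also called 2 members lower by day 2. With the libraries of the 2 days only, the median at day 6 against day 2 was 0.56. Leaving out each library gave 67 to 70 members higher and 1 to 4 lower by day 2 (median 0.79 to 0.96), 58 to 70 higher and 2 lower at day 6 against day 2 (median 0.55 to 0.76), and 73 higher and 1 lower over the course (median 1.41 to 1.61). Summed from TMM-scaled CPM, the share was 0.161% at day 0, 0.277% at day 2 and 0.454% at day 6. With the replicate block 70 members were higher by day 2, 69 at day 6 against day 2 and 73 over the course; the block changed no call of a member other than Mrpl14. In every alternative 66 of 74 calls held at day 2 against day 0, 45 of 70 at day 6 against day 2 and 74 of 74 over the course. Shares of all genes called under the alternatives are not given here, so these counts of members stand without a background. Apart from what the scaling shows, the cause of these moves was not tested. Depth limits Mrps18c and Mrps18b most, the lowest members.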
